A study of Rattus norvegicus with 8 samples.

Results

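The genes described here are those whose diet difference could be followed from fat cell precursors into the adipocytes made from them: 7572 of the 14018 genes that carry the same identifier in the precursor table and in the adipocyte table. They were chosen by a mean of at least 50 normalized counts in each table. That mean covers both diets, so a gene scarce in 1 diet could enter through the other. For every gene, the diet difference in adipocytes minus the diet difference in precursors (the difference of differences) was computed on log2(normalized count + 1). The diet difference of the precursors was then read as kept, lost or reversed after differentiation. Of the other shared genes, 5297 were under the minimum in the precursors only, 67 in the adipocytes only and 1082 in both, so genes that are nearly silent in precursors are not described.

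Wild-type Wistar rats ate 1 of 2 diets for 6 months, control (C) or high in fat with sucrose (HFS, the high-fat sucrose diet). The study took adipose-derived stem cells (ASC), the precursors of fat cells, from inguinal fat by collagenase digestion. Cultured ASC of each diet were differentiated into adipocytes (AD) by 3 days of induction with insulin at 10.0 µg/mL, IBMX at 0.5 mM and dexamethasone at 5.0 µM, followed by 7 days with insulin at the same dose. Stage and diet make 4 groups, ASC_C and ASC_HFS for the precursors and AD_C and AD_HFS for the adipocytes, with 2 RNA-seq libraries apiece. Both AD groups share the inducing agents and the insulin, and all 8 libraries, AD included, carry the cell type label of mesenchymal stem cells. The labels speak of 50 bp paired-end reads and of 2 libraries per condition, and name neither the animals nor the cultures behind a library, so every p below measures the spread between these libraries only, which may be technical.

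Precursor preparations taken from fat by enzyme digestion hold fibroblast-like progenitors together with some macrophages, endothelial cells and other cells of the tissue. Progenitors divide, make matrix and answer inflammatory stimuli through the transcription factor NF-kB, and they leave the cell cycle as they fill with lipid under insulin, glucocorticoid and cyclic AMP signals. Macrophages, by contrast, do not become fat cells in such cultures.

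The libraries held 992618 to 7290961 reads in ASC and 76083827 to 119555051 in AD. ASC_HFS replicate 2 was the shallowest, and 3 reads in it equal 10.9 normalized counts, so values near or below this in ASC_HFS rest on few reads. The AD_HFS libraries stood apart in another way: their members differed by a median of 0.050 (absolute log2) and none by more than 1, against medians of 0.243 to 0.350 and 381 to 613 such members in the other 3 pairs. Their chi-square per gene was 12.9, beyond counting error, but this cannot show whether the 2 libraries come from separate samples. Of the genes, 57.7% lay within counting error in this pair, against 14.5% in AD_C. In the shallower ASC_C and ASC_HFS pairs, 38.8% and 60.3% did. The AD_HFS pair was kept as 2 libraries, and counts with it averaged into 1 are given beside the main ones. Adipocyte messages set the stages apart: the read share of 26 adipocyte identity genes was 0.247 to 0.691% in the ASC libraries and 3.65 to 4.62% in the AD libraries.

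In ASC, 1531 of the 7572 genes (20.2%) were higher and 1491 (19.7%) lower in HFS at an adjusted p under 0.05 (limma, Benjamini-Hochberg over all 14018 shared genes). In AD, 124 (1.64%) were higher and 3 (0.0396%) lower. The difference of differences passed for 698 genes (9.22%) with a higher and 560 (7.4%) with a lower diet difference in AD. The median absolute log2 difference was 0.640 in ASC and 0.157 in AD. Of the 3022 genes called in ASC, 71 were kept (called in AD with the same sign), 6 were reversed (called in AD with the opposite sign) and 1193 were lost (not called in AD, with a difference of differences that passed). The other 1752 passed neither the AD test nor the test of the difference, so their fate is unresolved. A further 31 genes were gained: they passed in AD and for the difference of differences, but not in ASC. The difference of differences contains the ASC difference and is not independent of the ASC call. The AD difference itself comes from other libraries, but its test does not. All 8 libraries shared 1 spread per gene, so the standard error (SE) was the same at both stages, with a median of 0.262. Whether a gene passed in AD, and so was kept or lost, thus rests on the spread of the ASC libraries too. In place of 127, array weights by stage gave 401 AD calls and a separate fit of each stage 59.

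These calls rest on few libraries. With the AD_HFS pair averaged into 1 sample, 46 differences of differences passed, and 8 genes were kept, 44 lost and none reversed. Without AD_C replicate 1 there were 116 such differences, without ASC_C replicate 1 there were 261, without AD_C replicate 2 there were 691, and without AD_HFS replicate 1 or 2 there were 44 or 48. Without ASC_HFS replicate 1 there were 2276. With library sizes rescaled over all 8 libraries, which shifted the median difference of differences to -0.0999, 44.5% of 1142 calls were positive, against 55.5% of 1258. A gene that misses the AD threshold is not thereby shown to be alike in both diets.

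**Figure D1:**
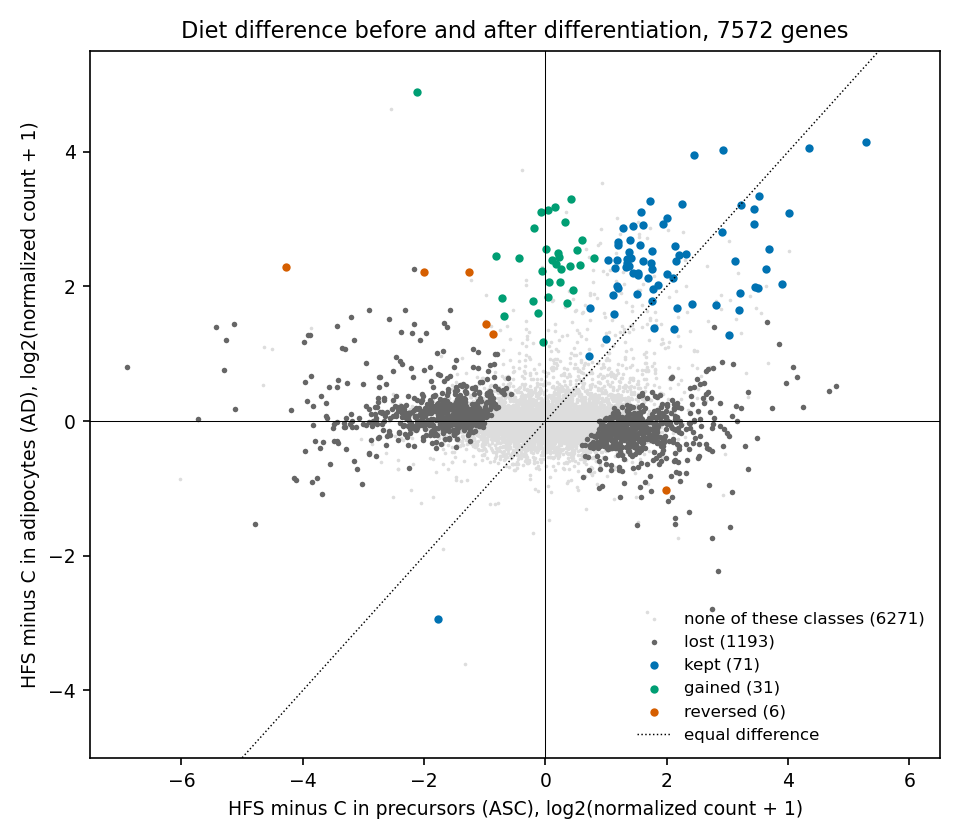
Diet difference (HFS minus C, log2 of the normalized count plus 1) in precursors on the x axis and in adipocytes on the y axis, 1 point for each of the 7572 genes, coloured by class. The 1193 lost genes did not pass in AD and mostly lie near its line of no difference, the 71 kept genes lie at the upper right except Ccl11 at the lower left, and the dotted line marks an equal difference in both.

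A description by size needs no test. Among 1158 genes at least 1 higher (log2) in HFS precursors with C and HFS libraries that did not overlap, 155 (13.4%) were at least 1 higher and not overlapping in AD as well, 18 (1.55%) were that much lower, and 827 (71.4%) lay within 0.5 of no difference. Among 1159 genes at least 1 lower in HFS precursors, 9 (0.777%) were lower in AD, 37 (3.19%) were higher and 1028 (88.7%) lay within 0.5. Over all 7572 genes, 3.98% were that much higher in AD and 0.489% that much lower. Libraries of the 2 diets did not overlap for 67.8% of all members in ASC and 50.8% in AD. A lack of overlap alone therefore sets no gene apart. The larger the excess in HFS precursors, the more often AD_HFS was higher too: 54% of the 50 genes with an ASC difference of 3 or more, 20.45% of 176 from 2 to 3, 10.0% of 938 from 1 to 2, and 2.75% of 2650 from 0 to 1. At the other end, 22.1% of the 68 genes lower by more than 3 in ASC were higher in AD, and 2.94% were lower. Across the 7572 genes the ASC and AD differences had a Pearson r of 0.125 and a Spearman rho of -0.0137, given as a description, since genes of a library are not independent.

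**Figure D2:**
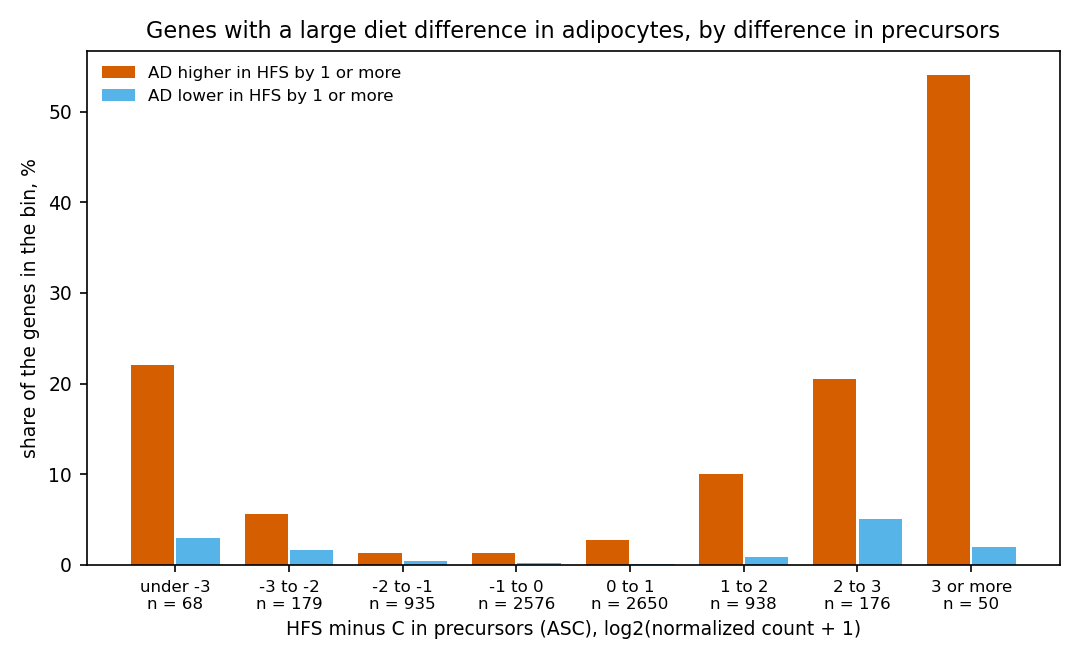
Share of genes (%) whose AD difference is at least 1 (log2) with C and HFS libraries that do not overlap, on the y axis, by the size of the ASC difference on the x axis, for higher and for lower in AD_HFS. The share higher in AD runs from 1.28% in the bin from -2 to -1 to 54% in the bin at 3 or more, and the share lower stays at or below 5.11% in every bin.

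Acute inflammatory cytokines and chemokines, which call neutrophils and monocytes into tissue, were high in HFS precursors and did not pass in the adipocytes. Of 17 measured members, 13 were higher in HFS precursors, none passed in AD, and 9 were lost. Their median difference was 1.57 in ASC and -0.07 in AD, beside 0.01 and -0.02 over all members. Il1b, the fever cytokine interleukin 1 beta, had 13.9 and 31.4 normalized counts in ASC_C and 629 and 580.2 in ASC_HFS, and 29.1 and 157 in AD_C against 92.9 and 103 in AD_HFS. The ASC groups are far apart and the AD_HFS values lie between the AD_C values; the difference of differences was -4.26 ± 1.02 (SE, 2 libraries per group; adjusted p = 0.0353). Cxcl1, a neutrophil attractant, stood at 488 and 753 in ASC_C and 9189 and 14460 in ASC_HFS, and at 486 and 532 in AD_C against 557 and 619.5 in AD_HFS. Its ASC difference of 4.25 ± 0.28 shrank to 0.21 ± 0.28 in AD, and it was the 1 member of the list that still passed with the AD_HFS pair averaged. Of 10 differences of differences that passed on this list, 2 did without AD_C replicate 1, 6 without AD_C replicate 2, 1 without ASC_C replicate 1 and 5 without ASC_HFS replicate 2.

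In Ptgs2 and Ccl2, both on this list, the groups swapped order. Ptgs2, the inducible cyclooxygenase of prostaglandin synthesis, had 212 and 252 in ASC_C, 846 and 1686 in ASC_HFS, 959.7 and 428 in AD_C and 259.9 and 242 in AD_HFS. Ccl2, the monocyte attractant MCP-1, had 4906 and 3684 in ASC_C, 10450 and 14050 in ASC_HFS, 10720 and 3451 in AD_C and 2048 and 2122 in AD_HFS. In both genes HFS was above C in every ASC library and below it in every AD library, but neither AD difference passed (-1.35 ± 0.43, adjusted p = 0.325, and -1.54 ± 0.45, adjusted p = 0.246). Il6 had 619 and 1212 in ASC_C against 3778 and 3858 in ASC_HFS, and its AD groups overlapped, with 268 and 124 in AD_C against 139 and 123 in AD_HFS. The AD_C replicates themselves differ in these genes, with replicate 1 the higher for Ptgs2, Ccl2 and Il6 and the lower for Il1b.

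The regulators that NF-kB induces to limit itself followed a like course. Of 19 NF-kB feedback and Toll-like receptor genes, 12 were higher in ASC_HFS, 9 of these were lost and 1, Tlr2, was kept. Tnfaip3, the ubiquitin editor A20 that shuts NF-kB signalling off, had 105 and 106 in ASC_C and 506 and 754 in ASC_HFS, and 1955 and 1826 in AD_C against 1914 and 1960 in AD_HFS. Nfkb1, a subunit of the factor, had 338 and 269 in ASC_C against 1308 and 2089 in ASC_HFS and 7060 and 6806 in AD_C against 7138 and 6750 in AD_HFS. Icam1, the adhesion molecule to which leukocytes bind, had 497 and 374 in ASC_C against 2212 and 2807 in ASC_HFS, then 11880 and 4402 in AD_C against 5098 and 4970 in AD_HFS. In all 3 genes the AD groups overlap while the ASC groups do not. Differences of differences were -2.51 ± 0.33, -2.45 ± 0.34 and -3.05 ± 0.57, and none of the list passed with the AD_HFS pair averaged.

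The promoters of Cxcl1 and Icam1 are shown because both genes were lost and hold the letters of an NF-kB site. They are RefSeq windows of 250 bases before to 50 after the gene start on the build GRCr8, which is not the build of the tables, and capitals mark GGANTTTCC on either strand. Cxcl1 lies at chr14:17479272-17479571 on the minus strand and Icam1 at chr8:27829595-27829894 on the plus strand. Of the 36 members of these 2 lists, 26 had a window and 9 of them (34.6%) held the motif, against 1.56% of the 5763 members with a window and 1.28% of all 33469 windows. A match describes letters and is no evidence of binding. Both lists were drawn up by known function, and members that were not lost are counted too. These shares therefore say nothing about the loss.
Cxcl1: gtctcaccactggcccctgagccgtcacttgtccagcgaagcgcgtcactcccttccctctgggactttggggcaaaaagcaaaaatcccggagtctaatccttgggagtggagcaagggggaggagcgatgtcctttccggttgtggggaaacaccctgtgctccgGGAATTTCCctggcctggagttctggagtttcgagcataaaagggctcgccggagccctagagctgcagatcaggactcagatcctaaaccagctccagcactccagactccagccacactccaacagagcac
Icam1: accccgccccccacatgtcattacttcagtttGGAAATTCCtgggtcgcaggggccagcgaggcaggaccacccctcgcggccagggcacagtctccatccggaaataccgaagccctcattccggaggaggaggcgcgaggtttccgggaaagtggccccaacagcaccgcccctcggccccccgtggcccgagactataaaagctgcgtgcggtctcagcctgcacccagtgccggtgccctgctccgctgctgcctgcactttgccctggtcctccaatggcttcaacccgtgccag

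Immediate early genes, the transcription factors and RNA-decay proteins switched on within minutes of a stimulus, followed the same course. Of 22 members, 17 were higher in ASC_HFS and 13 were lost. In AD, 19 had a negative difference and none passed, with medians of 1.66 in ASC and -0.34 in AD. Zfp36, tristetraprolin, which promotes decay of cytokine messages, had 353 and 329 in ASC_C and 1543 and 2023 in ASC_HFS, and 13470 and 7932 in AD_C against 7976 and 7519 in AD_HFS, where the groups overlap. Atf3, a stress-induced repressor, had 402 and 703 in ASC_C against 2077 and 2114 in ASC_HFS, and 4391 and 2725 in AD_C against 3425 and 3469 in AD_HFS, which overlap. Klf4 had 624 and 615 in ASC_C against 1103 and 1258 in ASC_HFS and the opposite order in AD, 11500 and 6992 in AD_C against 4677 and 4512 in AD_HFS, with an AD difference of -0.96 ± 0.24 that did not pass (adjusted p = 0.145). Without AD_C replicate 1 the list median in AD was 0.06 and 1 difference of differences passed in place of 13. Without ASC_C replicate 1 there were 9 ASC calls and 2 differences of differences. Fos itself did not pass in any contrast, with AD_C libraries at 2274 and 455.

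Genes of cell division were low in HFS precursors and did not pass in the adipocytes. Of 24 cell cycle and DNA replication genes, 17 were lower in ASC_HFS and 1, Pcna, was higher. None passed in AD, although 23 of the 24 had a positive AD difference. Their medians were -2.34 in ASC and 1.07 in AD, and 15 were lost. Only 24 of the 47 listed genes shared by both stages met the minimum. Cdk1, Ccnb1 and Birc5 met it through ASC_C alone, with ASC_HFS means of 6.5, 6.2 and 7.4. The ASC calls, medians and losses of this list are therefore partly set by that choice of genes. Over the settings run the ASC median lay between -2.965 and -1.239, and the number of ASC calls depended on the setting. Cdk1, the kinase that drives entry into mitosis, had 179 and 115 in ASC_C and 13.1 and 0 in ASC_HFS, and 339 and 576 in AD_C against 1059 and 976 in AD_HFS. Ccnb1, its cyclin B1 partner, had 138 and 118 in ASC_C against 12.5 and 0 in ASC_HFS, then 272 and 463 in AD_C against 1031 and 897 in AD_HFS. Birc5, survivin of the mitotic spindle, had 119 and 116 in ASC_C against 11.2 and 3.63 in ASC_HFS, then 120.3 and 273 in AD_C against 441 and 385 in AD_HFS. In each the order of the diets turned between the stages, with no overlap on either side. Such a lack of overlap held for 67.8% of all members in ASC and 50.8% in AD.

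The size of these mitotic differences is uncertain, since the ASC_HFS values are a few reads. The fitted difference of differences of Cdk1 was 6.47 ± 1.42 with a pseudocount of 1 and 5.16 with 5. It was 4.56 without ASC_HFS replicate 2, the library with no read of it, and no longer passed without either AD_C, either AD_HFS or either ASC_C library. Replication licensing genes Mcm2, Mcm4 and Mcm7 did not pass, with ASC differences of -0.12, -0.29 and -0.72. Those 3 genes were chosen after their values were seen. The 17 ASC calls still passed with the AD_HFS pair averaged, whereas none of the differences of differences did. Without ASC_C replicate 1 the ASC calls were 5 and the differences of differences 1, and without AD_C replicate 1 or 2 the latter were 1 or 7.

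Promoters of 3 mitotic genes are shown because their genes had among the largest turns of the list. They are RefSeq windows of the same kind on GRCr8, with capitals marking CCAAT and the CHR motif TTTGAA of cell-cycle promoters, either strand. Of the 24 members, 19 had a window; 16 of these (84.2%) held CCAAT and 9 (47.4%) TTTGAA, against 38.1% and 10.2% of the 5763 members with a window and 37.5% and 18.35% of all windows. Cdk1 lies at chr20:19265043-19265342, plus strand, Ccnb1 at chr2:33655176-33655475, minus strand, and Birc5 at chr10:103571896-103572195, plus strand. The CCAAT boxes of Ccnb1 begin 82 and 50 bases before the start, and TTTGAA of Cdk1 begins 72 and 16 bases before it. The list was drawn up by known function, and members that were not lost are counted too. The shares of windows with a motif therefore say nothing about the loss.
Cdk1: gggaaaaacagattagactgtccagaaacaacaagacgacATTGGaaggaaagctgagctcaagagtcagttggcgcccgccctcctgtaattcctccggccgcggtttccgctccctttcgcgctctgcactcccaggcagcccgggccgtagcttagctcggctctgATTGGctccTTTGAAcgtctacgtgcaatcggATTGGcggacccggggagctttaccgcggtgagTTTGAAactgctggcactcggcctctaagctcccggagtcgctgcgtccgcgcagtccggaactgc
Ccnb1: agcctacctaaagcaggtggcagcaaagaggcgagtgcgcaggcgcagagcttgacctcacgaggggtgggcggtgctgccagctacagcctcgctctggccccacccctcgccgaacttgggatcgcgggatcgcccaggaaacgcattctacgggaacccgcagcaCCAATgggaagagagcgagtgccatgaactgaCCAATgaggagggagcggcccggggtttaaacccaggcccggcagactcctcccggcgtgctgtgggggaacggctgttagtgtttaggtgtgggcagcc
Birc5: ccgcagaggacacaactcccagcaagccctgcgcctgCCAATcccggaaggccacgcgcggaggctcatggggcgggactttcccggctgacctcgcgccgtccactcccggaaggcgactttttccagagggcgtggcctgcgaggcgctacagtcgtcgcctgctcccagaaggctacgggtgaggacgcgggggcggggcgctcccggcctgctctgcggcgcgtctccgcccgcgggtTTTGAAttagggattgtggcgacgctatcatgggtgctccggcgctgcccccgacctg

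Genes of cholesterol synthesis were low in HFS precursors and did not pass in the adipocytes. Of 21 genes of its synthesis and uptake, 18 were lower in ASC_HFS, none passed in AD, and 14 were lost, with medians of -1.87 and 0.05. Mvd, which makes the isoprenoid building block from mevalonate, had 376 and 359.6 in ASC_C and 46.8 and 43.5 in ASC_HFS, and 6447 and 5033 in AD_C against 5668 and 5370 in AD_HFS. Fdps, the farnesyl diphosphate synthase, had 1929 and 1831 in ASC_C against 431 and 276 in ASC_HFS, and 26070 and 36670 in AD_C against 36770 and 34670 in AD_HFS. The ASC groups of both are separate and the AD groups overlap. Mvd was the member that still passed with the AD_HFS pair averaged (2.95 ± 0.28, adjusted p = 0.00586 in the fit of all 8 libraries). Insig1, also under sterol control, did not share the ASC drop (0.93, chosen after its value was seen). The sterol response letters TCACNCCAC were in none of the 15 windows of this list and in 1.12% of all windows.

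Fatty acid synthesis genes were called no more often than other genes. Of 24 genes of fatty acid and triglyceride synthesis, 4 were higher and 5 lower in ASC_HFS, near the 20.2% and 19.7% of all members, and none passed in AD. Even so, 23 of the 24 AD differences were positive, with a median of 0.36 beside -0.02 over all members. This AD median ran from 0.08 to 0.51 over the settings run. Scd2, a desaturase that makes monounsaturated fatty acids, had 2387 and 1647 in ASC_C and 284 and 196 in ASC_HFS, then 210100 and 271400 in AD_C against 242700 and 248200 in AD_HFS. Acss2, which makes acetyl-CoA from acetate, had 278 and 188 in ASC_C against 90.4 and 65.3 in ASC_HFS and 54940 and 46090 in AD_C against 50560 and 50520 in AD_HFS. Both were low in ASC_HFS, and in both AD_HFS lay between the AD_C libraries. Fads1, another desaturase, was low in ASC_HFS too, and its AD groups did not overlap, with a difference of 0.62 ± 0.25 that did not pass. Cpt1a, the gate of mitochondrial fatty acid entry, was instead high in ASC_HFS, 69.5 and 67.7 in ASC_C against 175 and 174 in ASC_HFS, and 1719 and 1042 in AD_C against 1013 and 1040 in AD_HFS.

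Glycolysis, hypoxia and mitochondrial genes were mostly low in HFS precursors as well. Of 21 glycolysis and lactate genes, 12 were lower and 4 higher in ASC_HFS, and 9 were lost. Tpi1, triose phosphate isomerase, had 3530 and 4472 in ASC_C and 858 and 352 in ASC_HFS, with 63740 and 72490 in AD_C against 65720 and 63600 in AD_HFS. Slc16a3, the lactate exporter MCT4, had 1175 and 608 in ASC_C against 128 and 65.3 in ASC_HFS, then 2812 and 3099 in AD_C against 2856 and 2692 in AD_HFS. Both were separate by diet in ASC and overlapped in AD. Of 20 hypoxia-inducible genes 11 were lower in ASC_HFS and 6 were lost. The respiratory chain and ATP synthase list had 39 of 60 genes lower in ASC_HFS and the mitochondrial ribosome list 36 of 57, and no gene of either passed in AD. These ASC counts ran from 4 to 47 and from 2 to 38 over the settings run, while the list medians in ASC stayed below 0. Their AD differences were narrow, from -0.23 to 0.33 for the respiratory genes. Of these lists 9 and 11 genes were called lost, near the 15.8% of all members, and the respiratory count was 36 differences of differences without ASC_HFS replicate 1 and none without either AD_HFS library or AD_C replicate 1.

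**Figure D3:**
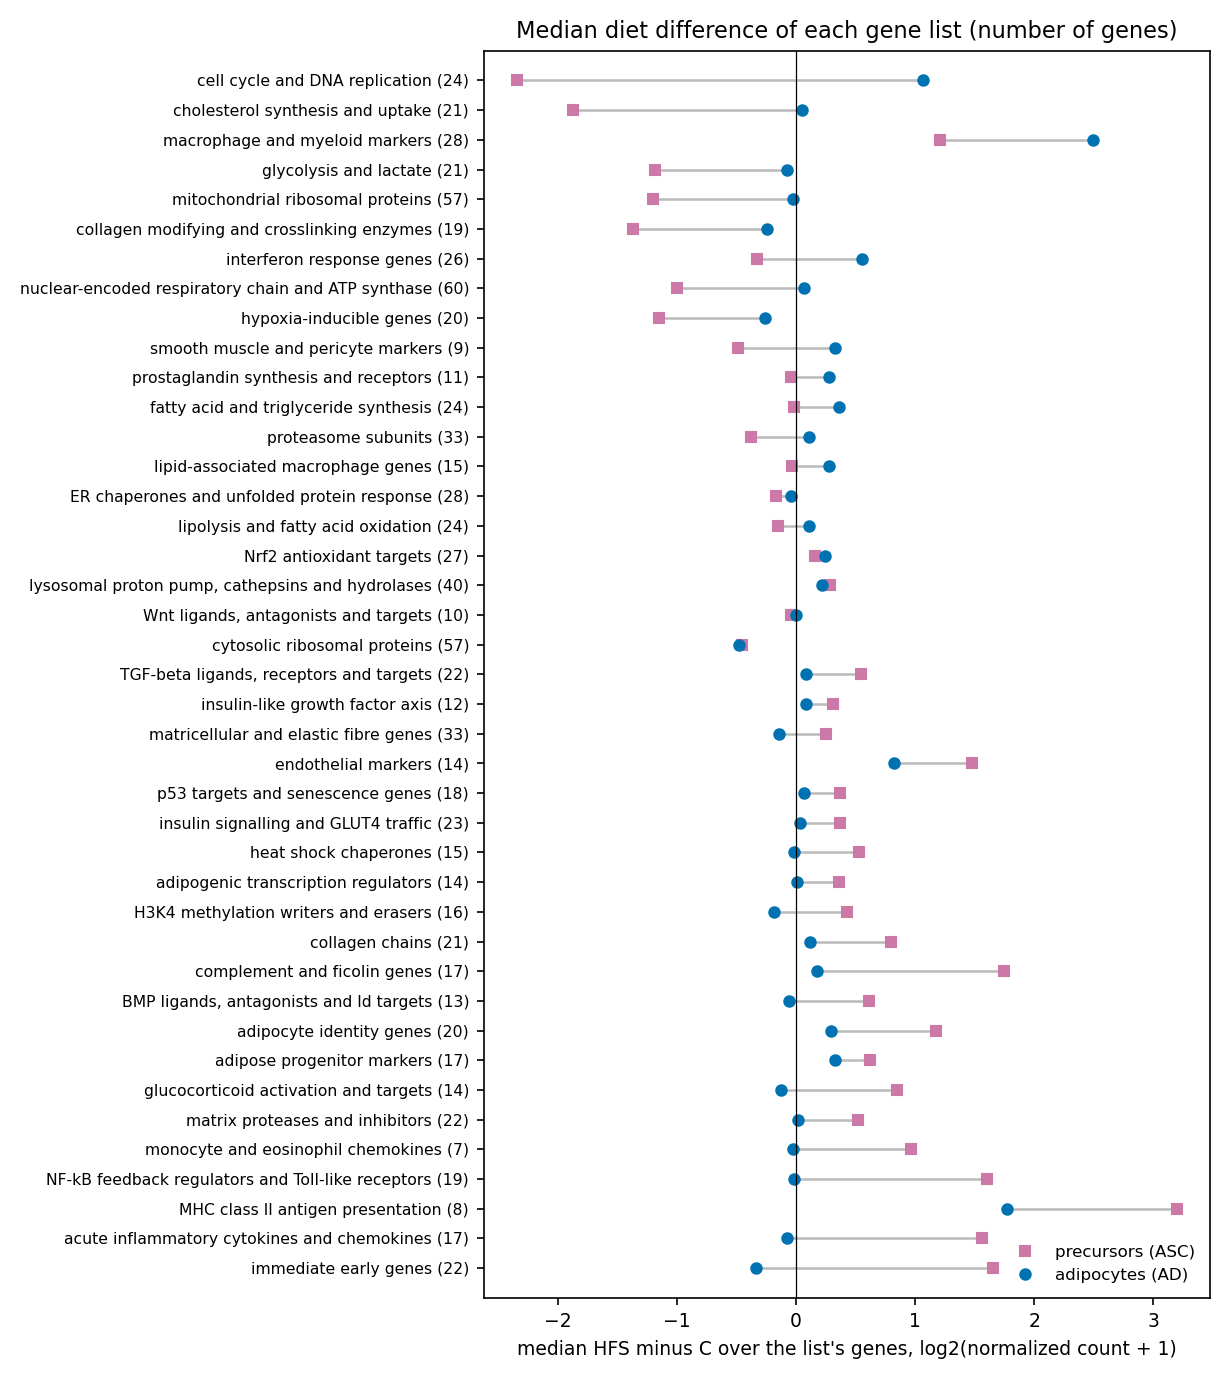
Median diet difference (HFS minus C, log2 of the normalized count plus 1, x axis) of each gene list with at least 7 measured genes (y axis, number of genes in brackets), squares for precursors and circles for adipocytes. Immediate early, inflammatory and NF-kB lists move from above 1.5 to near or below 0, cell cycle and cholesterol lists from -2.34 and -1.87 to above 0, and macrophage and MHC class II lists stay above 1 at both stages.

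Cytosolic ribosomal protein genes lay slightly lower in HFS at both stages. None of 57 cytosolic ribosomal protein genes passed in any of the 3 contrasts, and their medians were -0.46 in ASC and -0.47 in AD, both below the medians of all members. All 57 AD differences were negative, and over the settings run up to 25 of the genes were called lower in ASC and up to 4 in AD. Rpl13 had 1639 and 1391 in ASC_C against 1618 and 1324 in ASC_HFS, which overlap, and 36370 and 41640 in AD_C against 28020 and 27140 in AD_HFS, which do not. Among chaperones of the endoplasmic reticulum, 9 of 28 were lower in ASC_HFS and 2 higher, beside 19.7% and 20.2% of all members. None of them passed in AD. Pdia4, a disulfide isomerase, had 1855 and 1181 in ASC_C against 374 and 250.2 in ASC_HFS and 22100 and 23560 in AD_C against 21920 and 21640 in AD_HFS.

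Among matrix and growth factor genes, Grem1, Sfrp1 and Tnc were low in HFS precursors and lost. Of 13 genes of the BMP list, 5 were higher and 1, Grem1, lower in ASC_HFS, with a median of 0.62. Of 10 genes of the Wnt list, 1 was higher and 4 lower, with a median of -0.04. Over all members 20.2% were higher and 19.7% lower. Grem1, which binds and blocks BMP ligands, had 495 and 349 in ASC_C and 11.2 and 0 in ASC_HFS, and 1009 and 2323 in AD_C against 2560 and 2779 in AD_HFS. Its difference of differences of 7.70 ± 1.35 (adjusted p = 0.0167) was the largest by the naming rule, and rests on 1 ASC_HFS library without a read; with a pseudocount of 5 it was 6.34. Sfrp1, a Wnt antagonist, had 5546 and 2170 in ASC_C against 145 and 247 in ASC_HFS, and 15760 and 32560 in AD_C against 25530 and 25140 in AD_HFS. The AD_HFS libraries of Sfrp1 lie between the AD_C libraries, whereas those of Grem1 lie above both. Tnc, tenascin C of wounded tissue, had 2039 and 1492 in ASC_C against 272 and 105 in ASC_HFS, then 5925 and 20120 in AD_C against 23210 and 22960 in AD_HFS. Its AD_C libraries differ more from each other than its AD groups do.

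Elastic fibre genes held calls of both signs. Of 33 matricellular and elastic fibre genes 10 were higher and 8 lower in ASC_HFS, beside 20.2% and 19.7% of all members, and 16 were lost. Mfap2, a microfibril component, had 19.4 and 39 in ASC_C and 135 and 308 in ASC_HFS, and 1604 and 277 in AD_C against 147 and 138 in AD_HFS. Efemp1, fibulin 3, had 102 and 112 in ASC_C against 430.3 and 584 in ASC_HFS, then 6933 and 9156 in AD_C against 4403 and 4161 in AD_HFS. In both, HFS was higher in every ASC library and lower in every AD library, with AD differences of -2.22 ± 0.77 and -0.90 ± 0.22 that did not pass (adjusted p = 0.417 and 0.146). Efemp2, fibulin 4, was instead low in ASC_HFS, with 2408 and 1892 in ASC_C against 334 and 301 in ASC_HFS, and overlapped in AD, with 36510 and 48630 in AD_C against 36950 and 35010 in AD_HFS. Enzymes that hydroxylate and crosslink collagen were lower in ASC_HFS for 15 of 19 genes, none passed in AD, and the list median moved from -1.36 to -0.24.

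Igfbp5 and Hsd11b1, of hormone axes, were lost as well. Igfbp5, which holds insulin-like growth factors, had 410.4 and 530.4 in ASC_C and 3594 and 5367 in ASC_HFS, and 15520 and 13470 in AD_C against 16260 and 16840 in AD_HFS. Hsd11b1, which regenerates active glucocorticoid in fat, had 2554 and 1789 in ASC_C against 289 and 207 in ASC_HFS, and 92370 and 48700 in AD_C against 65450 and 61510 in AD_HFS. The first was high and the second low in ASC_HFS, with AD differences of 0.19 ± 0.24 and -0.08 ± 0.33. Igfbp5 still passed with the AD_HFS pair averaged.

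Adipocyte genes were called only upward in HFS precursors, in a number that depends on the setting. Of 20 adipocyte identity genes 10 were higher in ASC_HFS, none passed in AD, and the medians were 1.18 in ASC and 0.30 in AD. Over the settings run the ASC calls numbered 3 to 16 and the ASC median lay between 0.50 and 1.83. Pck1, the glyceroneogenesis enzyme, had 1.85 and 9.41 in ASC_C and 116 and 163 in ASC_HFS, then 78.5 and 125 in AD_C against 143 and 127 in AD_HFS. Adipoq, the hormone adiponectin, had 129.7 and 478 in ASC_C against 1058 and 841 in ASC_HFS, and 243700 and 299100 in AD_C against 239000 and 242600 in AD_HFS. The AD groups of Adipoq differ by -0.17 ± 0.50, and its difference of differences of -2.08 ± 0.70 did not pass (adjusted p = 0.0846). ASC_C replicate 1 had the lower read share of this list, 0.247%, against 0.650% in replicate 2 and 0.534 to 0.691% in ASC_HFS, so the shares of the diets overlap. Pparg and Cebpa, the master factors of adipogenesis, passed in neither stage, with ASC differences of 0.30 ± 0.27 and 0.42 ± 0.20 and AD differences of 0.24 ± 0.27 and -0.24 ± 0.20.

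Some genes of oxidative and genotoxic stress were among those lost. Of 27 antioxidant targets of Nrf2, 8 were higher and 3 lower in ASC_HFS, beside 20.2% and 19.7% of all members. None of them passed in AD and 6 were lost, beside 15.8% of all members. The list medians were 0.16 in ASC and 0.24 in AD, so the list as a whole did not fall. Of 18 p53 target and senescence genes, 6 were higher and 1 lower in ASC_HFS, none passed in AD and 4 were lost. Their medians were 0.37 and 0.07. Hmox1, haem oxygenase 1, had 5487 and 9810 in ASC_C and 29880 and 32760 in ASC_HFS, and 66950 and 69680 in AD_C against 86350 and 82930 in AD_HFS. Gdf15, a stress hormone, had 54.6 and 90.6 in ASC_C against 645 and 801 in ASC_HFS, and 451 and 404 in AD_C against 638 and 524 in AD_HFS. Both AD pairs still lay higher in HFS without overlap, but the differences of 0.31 ± 0.31 and 0.44 ± 0.31 did not pass. Cdkn1a, the cell cycle brake p21, had 311 and 374 in ASC_C against 1063 and 914 in ASC_HFS, and 9711 and 9806 in AD_C against 10730 and 10500 in AD_HFS.

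**Figure D4:**
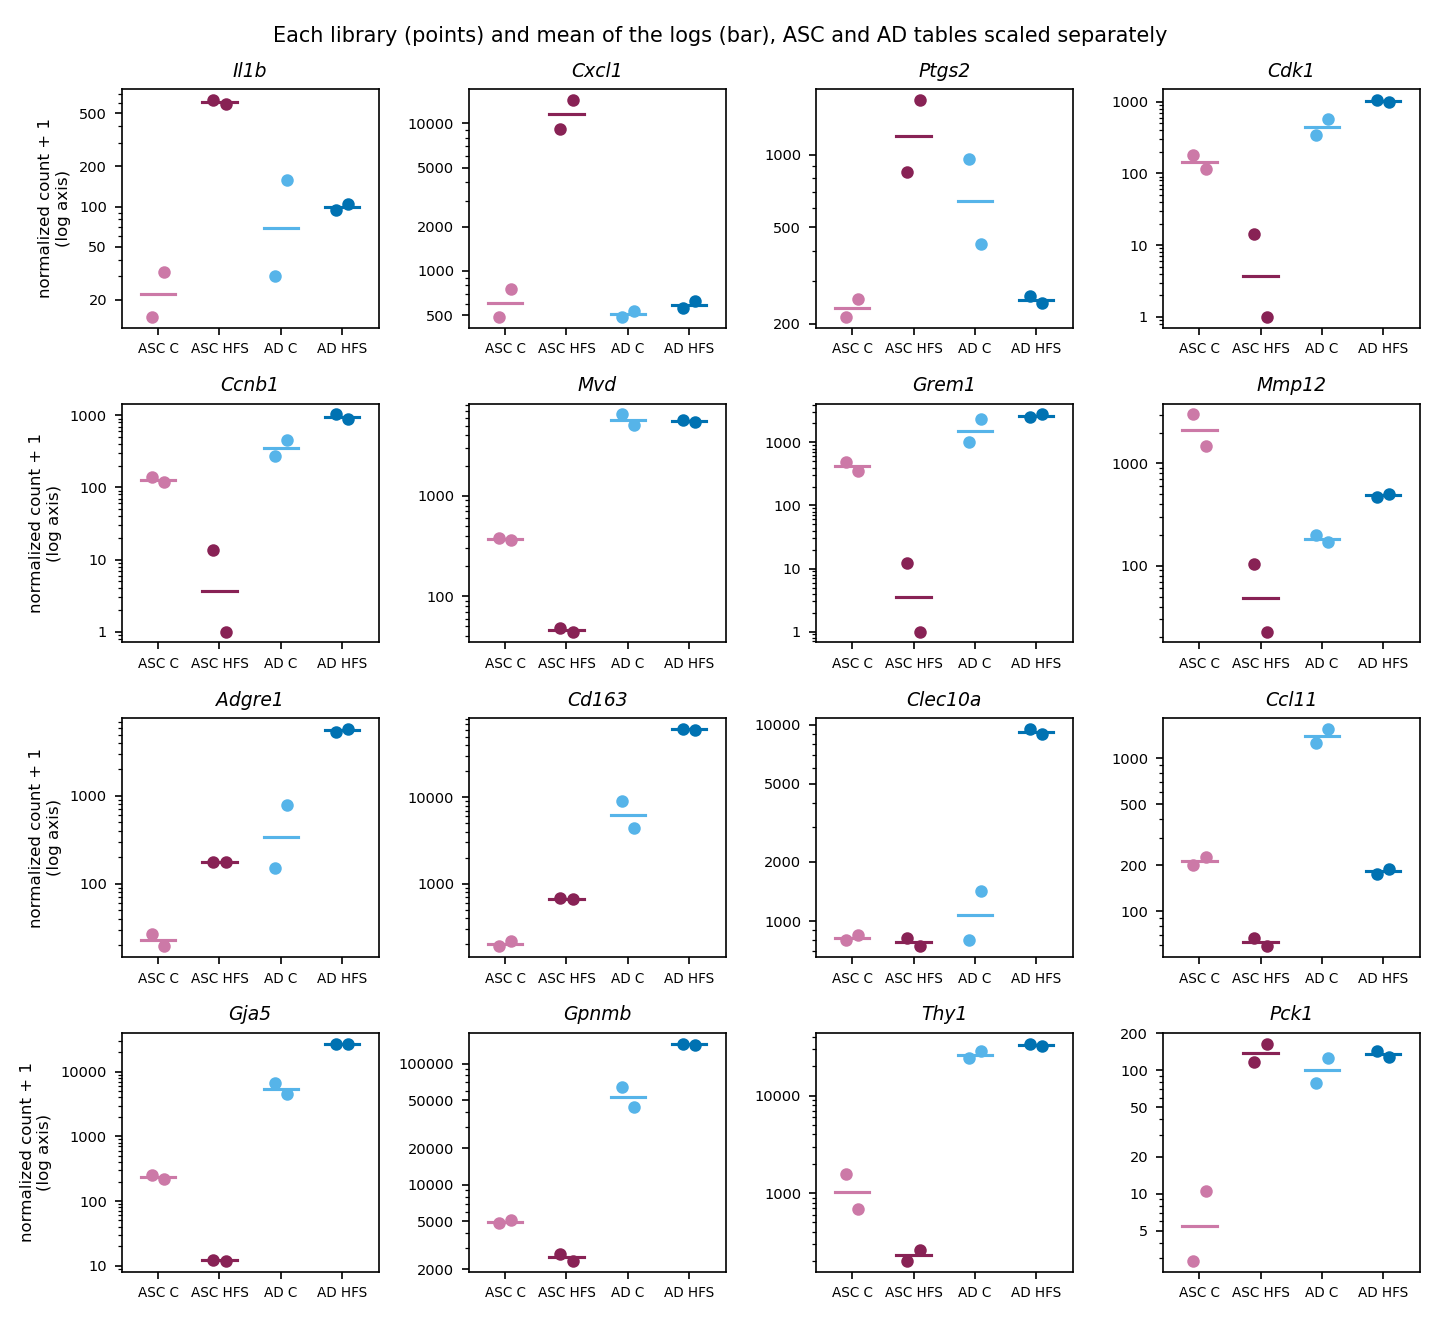
Normalized count plus 1 on a log axis for 16 genes in every library (2 points per group, bar at the mean of the logs) for ASC_C, ASC_HFS, AD_C and AD_HFS. Il1b and Mvd part by diet in ASC only, Cdk1, Ccnb1 and Grem1 turn, Adgre1 and Cd163 part the same way at both stages, and Clec10a parts in AD only; ASC and AD levels come from tables scaled separately.

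Macrophage markers were high in HFS at both stages. Of 28 macrophage and myeloid markers, 16 were higher in ASC_HFS, 22 were higher in AD_HFS, 12 were kept, 4 were unresolved and none was lost. Their medians were 1.21 in ASC and 2.49 in AD. Adgre1, the macrophage surface protein F4/80, had 25.9 and 18.4 in ASC_C and 173 and 174 in ASC_HFS, and 149 and 777 in AD_C against 5397 and 5769 in AD_HFS. Cd163, the haemoglobin scavenger receptor, had 189 and 216 in ASC_C against 678 and 664 in ASC_HFS, and 8992 and 4407 in AD_C against 61210 and 60160 in AD_HFS. Mrc1, the mannose receptor, had 254 and 209 in ASC_C against 537 and 743 in ASC_HFS, then 5895 and 12400 in AD_C against 63110 and 64590 in AD_HFS. No library of the other diet overlaps in any of the 3, at either stage. A lack of overlap was common among all members, at 67.8% in ASC and 50.8% in AD. In ASC, Adgre1 met the minimum through ASC_HFS alone, with an ASC_C mean of 22.2.

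In bulk RNA, more macrophages and more of these messages per macrophage cannot be told apart. The summed read share of 35 macrophage genes was 0.202 to 0.203% in ASC_C and 0.368 to 0.393% in ASC_HFS, then 0.0485 to 0.0892% in AD_C and 0.408 to 0.409% in AD_HFS. Shares of the diets thus lay further apart in AD than in ASC, and AD_C was below ASC_C. Lymphoid markers, by contrast, had no member among the genes described, and their 7 listed genes took at most 0.00524% of reads in any library. With the AD_HFS pair averaged, 7 macrophage genes still passed in AD, and the list medians were unchanged to 2 decimals. Without AD_C replicate 1 there were 11 AD calls, without ASC_C replicate 1 or 2 there were 14, and without AD_HFS replicate 1 or 2 there were 4 or 6. The 16 ASC calls were 9 without ASC_HFS replicate 2, 10 without ASC_C replicate 1 or 2 and 4 with array weights, while the ASC median of the list stayed between 0.91 and 1.32 over the settings run. All 28 had a positive AD difference, the smallest 0.79.

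The complement opsonin C1q, which macrophages make, was kept as well. C1qa had 194 and 303 in ASC_C and 1828 and 1839 in ASC_HFS, and 2471 and 5073 in AD_C against 24820 and 24960 in AD_HFS, with differences of 2.92 ± 0.33 and 2.81 ± 0.33 and a difference of differences of -0.10 ± 0.47. C1qc had 62.1 and 100.4 in ASC_C against 1171 and 1418 in ASC_HFS, and 2076 and 6546 in AD_C against 31810 and 30970 in AD_HFS. C7, a component of the membrane attack complex, was lost, with 400.2 and 937 in ASC_C against 4841 and 6165 in ASC_HFS and 11880 and 12670 in AD_C against 11970 and 12620 in AD_HFS, where AD_HFS lay between the AD_C libraries. Tlr2, the receptor for bacterial lipoproteins, kept a smaller difference, 155 and 141 in ASC_C against 1646 and 1610 in ASC_HFS and 257 and 270.3 in AD_C against 997 and 1106 in AD_HFS. Its difference of differences was -1.46 ± 0.29 (adjusted p = 0.0229), but it was 2.35 (adjusted p = 0.705) when all libraries were thinned to the depth of the shallowest.

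Antigen presentation by MHC class II, the display of peptides to helper T cells, was kept in part. Of 8 members 7 were higher in ASC_HFS, 4 in AD_HFS, 4 were kept and 1 was called lost. Cd74, the invariant chain, had 1553 and 2296 in ASC_C and 14680 and 16060 in ASC_HFS, and 323 and 311 in AD_C against 787 and 752 in AD_HFS. RT1-Da, an alpha chain, had 308 and 471 in ASC_C against 3708 and 5084 in ASC_HFS, then 111 and 105 in AD_C against 459 and 401 in AD_HFS. Both stayed separate by diet, with a smaller difference in AD (-1.75 ± 0.30, adjusted p = 0.0166, and -1.53 ± 0.39, adjusted p = 0.041). The lost member, RT1-Bb, had 70.9 and 101 in AD_C and 248 and 225 in AD_HFS and missed the AD threshold narrowly (adjusted p = 0.0558). The list took 0.101 to 0.162% and 0.932 to 0.998% of reads in ASC_C and ASC_HFS, and 0.00422 to 0.00769% and 0.0318 to 0.0320% in AD_C and AD_HFS. Its median difference of differences, -1.52, ran from -2.10 to 0.56 over 24 settings, so its sign depends on the setting. With the AD_HFS pair averaged, none of the list passed in AD.

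**Figure D5:**
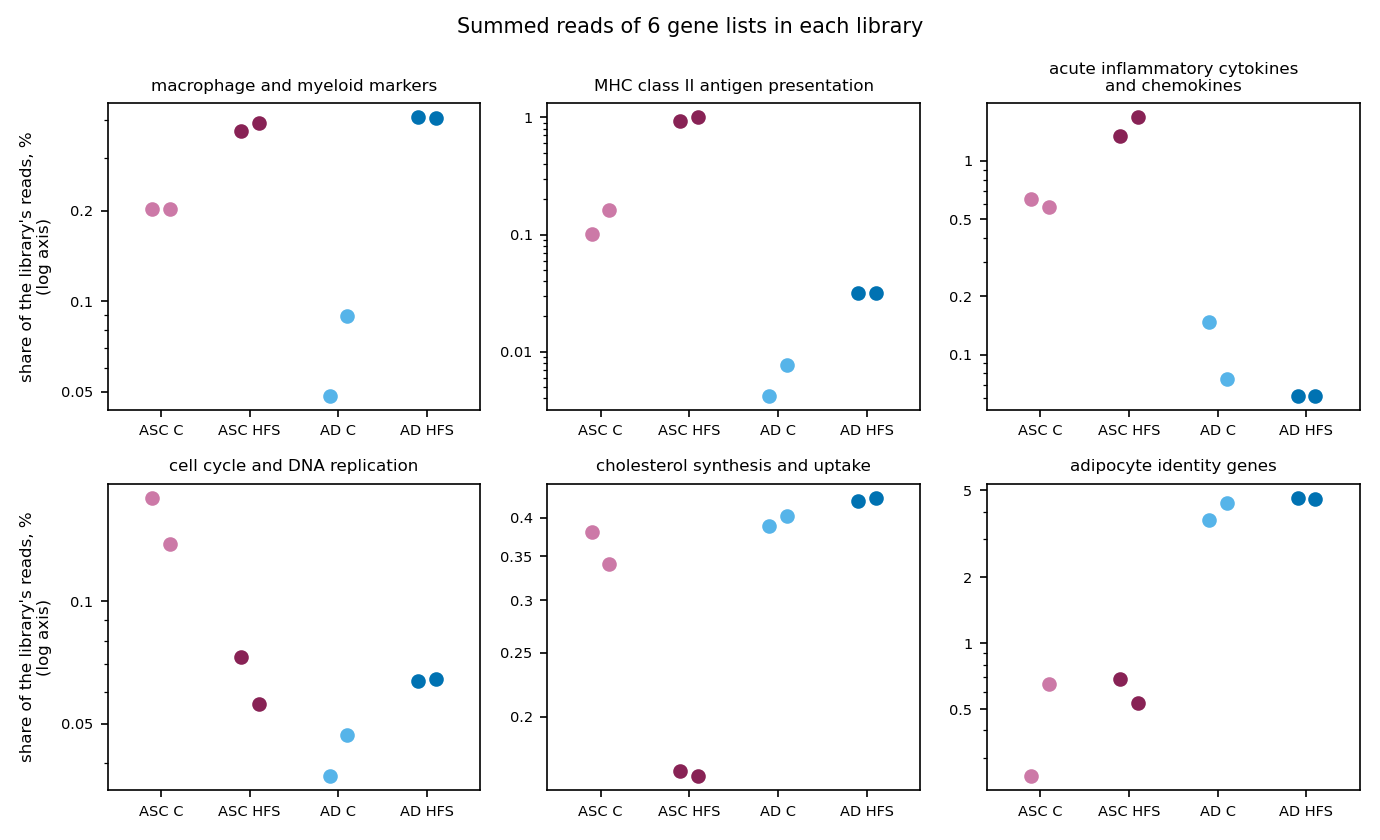
Share of each library's reads (%, log axis) taken by 6 gene lists in the 4 groups, 1 point per library. Macrophage and MHC class II shares are higher in HFS at both stages, inflammatory and cholesterol shares part further in ASC than in AD, and cell cycle shares are lower in ASC_HFS and higher in AD_HFS than in the control diet.

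Among the 71 kept genes, 70 were higher and 1 lower in HFS. The lower gene was Ccl11, eotaxin 1, which attracts eosinophils: 200.1 and 226 in ASC_C, 66.1 and 58 in ASC_HFS, 1264 and 1555 in AD_C and 174 and 189 in AD_HFS. Its differences were -1.76 ± 0.27 (adjusted p = 0.00335) and -2.94 ± 0.27 (adjusted p = 0.00469), and the change between them did not pass (-1.18 ± 0.39, adjusted p = 0.0793). Fcmr and P2ry6 were among the kept genes with the largest differences at both stages. Fcmr, an IgM receptor, had 3.71 and 11.7 in ASC_C against 261 and 348 in ASC_HFS, and 2.53 and 13.8 in AD_C against 119 and 136 in AD_HFS. P2ry6, a nucleotide receptor, had 14.8 and 27.4 in ASC_C against 270 and 218 in ASC_HFS, then 53.2 and 219 in AD_C against 1085 and 1124 in AD_HFS. Pld4 and Pla2g2d had differences of differences of -0.02 ± 0.82 and -0.28 ± 0.73, which did not pass. Over the settings run they ranged from -0.81 to 1.94 for Pld4 and from -1.02 to 3.51 for Pla2g2d, which passed in 1 of them, so neither sign is settled. Fcmr and Pla2g2d met the minimum through HFS alone, with C means of 7.7 and 16.4 in ASC and 8.2 and 10.5 in AD. P2ry6 and Pld4 did so in ASC only, with ASC_C means of 21.1 and 32.3. That these genes were kept with large differences is therefore partly set by the choice of genes. By size alone, Ccl20, Pdgfra, Sfrp2, Cpxm1, Gfra2, Qprt, Ca4 and Ndufa4l2 were the others at least 1 lower in HFS without overlap at both stages, named after their values were seen.

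The 31 gained genes were all higher in AD_HFS, and 5 of them were on the macrophage list. Clec10a, a galactose lectin of macrophages and dendritic cells, had 799 and 846 in ASC_C and 817 and 743 in ASC_HFS, which overlap, and 803 and 1426 in AD_C against 9509 and 8971 in AD_HFS. Fcgr2b, the inhibitory Fc receptor, had 215 and 149 in ASC_C against 193 and 207 in ASC_HFS, then 230.4 and 729.8 in AD_C against 3728 and 3742 in AD_HFS. Pf4, platelet factor 4, which macrophages also make, had 322 and 295 in ASC_C against 452 and 326 in ASC_HFS, then 1037 and 882 in AD_C against 7176 and 7698 in AD_HFS. Differences of differences were 3.19 ± 0.37, 3.03 ± 0.66 and 2.64 ± 0.31. By the test, 7 of the 28 macrophage markers had a larger diet difference in AD than in ASC and none a smaller one. With the AD_HFS pair averaged, Clec10a and Pf4 still passed and Fcgr2b did not.

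The 6 reversed genes were Gja5, Rab15, Pla2g7, Dpep1, Gpnmb and Cotl1, and 5 of them were low in HFS precursors and high in HFS adipocytes. Gja5, the gap junction protein connexin 40, had 248 and 219 in ASC_C and 11.2 and 10.9 in ASC_HFS, and 6599 and 4530 in AD_C against 26520 and 27130 in AD_HFS. Its difference of differences had the smallest p among the named genes (6.58 ± 0.32, adjusted p = 0.000172), with ASC_HFS values at 3 reads in replicate 2. Pla2g7, which degrades platelet-activating factor, had 176 and 233 in ASC_C against 78.6 and 90.7 in ASC_HFS, then 1562 and 1253 in AD_C against 6163 and 6828 in AD_HFS. Gpnmb, a glycoprotein of lipid-laden macrophages, had 4808 and 5093 in ASC_C against 2693 and 2357 in ASC_HFS, then 63680 and 44060 in AD_C against 146100 and 142400 in AD_HFS. Rab15, a small GTPase of endosome traffic, had 259 and 242 in ASC_C against 62.4 and 61.6 in ASC_HFS, then 454 and 216 in AD_C against 1390 and 1519 in AD_HFS, and Cotl1, an actin-binding protein, had 1122 and 1019 in ASC_C against 711 and 482 in ASC_HFS, then 3207 and 3165 in AD_C against 7930 and 7766 in AD_HFS. Dpep1, a dipeptidase, was the gene that went from high to low, with 197 and 204 in ASC_C against 769 and 823 in ASC_HFS and 12040 and 10420 in AD_C against 5503 and 5474 in AD_HFS. All 6 are separate by diet at both stages, as 67.8% of all members are in ASC and 50.8% in AD. None was called reversed with the AD_HFS pair averaged, yet Gja5, Rab15, Pla2g7 and Dpep1 still passed for the difference of differences. The macrophage read share, given above, was higher in HFS at both stages, and its part in these turns was not tested.

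Genes of lipid-laden macrophages were called in ASC about as often as other genes. Of 15 members, 2 were higher and 4 lower in ASC_HFS, beside 20.2% and 19.7% of all members. Their medians were -0.03 in ASC and 0.28 in AD, 4 were lost and 1, Gpnmb, was reversed. The summed read share of the 17 listed genes was 1.56 to 1.92% in ASC_C and 2.06 to 2.125% in ASC_HFS. In AD it was 1.21 to 1.53% in AD_C and 1.72 to 1.73% in AD_HFS, so the list as a whole did not fall. Mmp12, macrophage elastase, had 3013 and 1479 in ASC_C and 104 and 21.8 in ASC_HFS, and 200 and 168 in AD_C against 474 and 499 in AD_HFS. Spp1, osteopontin, had 4744 and 3905 in ASC_C against 656 and 624 in ASC_HFS, then 60980 and 56630 in AD_C against 92800 and 93210 in AD_HFS. Both were among the 4 members lower in HFS precursors, while the macrophage list was high there. In AD both lay above the control diet without overlap. Their AD differences did not pass (1.40 ± 0.63 and 0.66 ± 0.20), while both differences of differences passed, also with the AD_HFS pair averaged.

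Interferon response genes went both ways. Of 26 members 6 were higher and 6 lower in ASC_HFS, near the 20.2% and 19.7% of all members. In AD 2 passed, and the medians were -0.32 in ASC and 0.55 in AD. Ifit1, which binds viral RNA, had 51.9 and 42.6 in ASC_C and 395 and 392 in ASC_HFS, and 177 and 115 in AD_C against 49.7 and 45.5 in AD_HFS, with a difference of differences of -4.61 ± 0.53 (adjusted p = 0.00806). Its AD difference of -1.57 ± 0.38 did not pass.

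Some markers of other tissue cells were lost. Over all members 20.2% were higher and 19.7% lower in ASC_HFS, and 15.8% were lost. The mast cell enzyme Hdc, which makes histamine, was the only gene of its list among those described, with 839 and 586 in ASC_C and 13.7 and 10.9 in ASC_HFS, and 257 and 104 in AD_C against 159.7 and 173 in AD_HFS; the ASC_HFS values are near the 3 reads named above. The 5 listed mast cell genes took 0.0188 to 0.0278% of reads in ASC_C, 0.00222 to 0.00339% in ASC_HFS and at most 0.0006635% in AD. Other lists had higher read shares in ASC_HFS: 14 epithelial and mammary genes took 0.0144 to 0.0180% in ASC_C and 0.150 to 0.166% in ASC_HFS, and 4 red blood cell genes, none of them a member, 0.00102 to 0.00366% and 0.0296 to 0.0389%. In AD the epithelial list took at most 0.00259% and the red blood cell list at most 4.8e-05%. These shares move with the ASC diet differences described above, and their part in them was not tested. Csn1s1, a milk casein of mammary epithelium, had 201 and 258 in ASC_C against 3653 and 4464 in ASC_HFS, and 51.9 and 82 in AD_C against 107 and 100.5 in AD_HFS. Of 17 progenitor markers 7 were higher and 4 lower in ASC_HFS, with a median of 0.63, and 4 were lost, 2 that had been higher and 2 lower. Thy1, a surface protein of progenitors and 1 of the lower genes, had 1572 and 678 in ASC_C against 201 and 261 in ASC_HFS, and 24060 and 28780 in AD_C against 34100 and 32660 in AD_HFS. Of 9 smooth muscle and pericyte markers 2 were higher and 3 lower in ASC_HFS, and 2 were lost. With so few genes, these counts do not set the list apart from all members. Acta2, smooth muscle actin and 1 of these, had 449 and 433 in ASC_C against 180.2 and 119.7 in ASC_HFS, then 15210 and 5801 in AD_C against 29570 and 29200 in AD_HFS, with an AD difference of 1.65 ± 0.40 (adjusted p = 0.127). Of 14 endothelial markers 6 were higher in ASC_HFS and all of these were unresolved, with read shares of 0.0633 to 0.136% in ASC_C and 0.222 to 0.247% in ASC_HFS, and their medians were 1.48 in ASC and 0.83 in AD.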

How the data were processed

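Wild-type rat ASC and AD libraries (2 per diet and stage, 8 in all) were deposited as 2 tables, 1 per stage. Per the submitters' processing notes, the authors used FastQC, STAR, featureCounts and DESeq2 with the build mRatBN7.2 (rn7); versions and settings are not given in the sources used here. Per the labels, RNA was polyA and an rRNA depletion kit was used, so the RNA selection is uncertain. The deposited signal values were 2 to the power of a variance-stabilized value: with m the lowest value of a table, (value - m) squared over the value gave normalized counts, all whole reads after division by a library's step (tolerance 1e-06). The tables were scaled separately, so levels are not compared between stages.

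Differences were tested on log2(normalized count + 1) with limma 3.58.1 (limma-trend, R 4.3.3) in 1 fit of the 14018 shared genes, with Benjamini-Hochberg adjustment over all of them; every adjusted p is from this fit unless a setting is named. The fit had 4 residual degrees of freedom and was tested on simulated data first. Summaries used Python 3.11.15. The genes, the 47 lists and the tests were chosen with earlier results of these data known. Named genes were the 8 largest differences of differences per sign with library pairs that did not overlap between tables, up to 6 each of the kept, reversed and gained genes by size, up to 3 per list by p, and a set of known genes. The main fit used no replicate block, and the replicate numbers are not shown to pair the libraries. Of the list entries, 1162 matched by symbol, 4 by an older symbol and 195 not at all. Some genes are not reported here.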

Additional observations from a re-analysis of the deposited data

Results flagged for a closer look

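The 26 genes below are the 8 largest differences of differences of each sign and the named reversed and gained genes, out of 129 named genes for which the test of the difference itself set the stages apart. Their values are given as the AD minus the ASC log2 difference (limma, adjusted p under 0.05 over all genes). The 8 with the largest positive values were Grem1 at 7.70, Fcrl1 at 7.19, Cd300c2 at 7.00, Mmp12 at 6.84, Gja5 at 6.58, Ccnb1 at 6.57, Cdk1 at 6.47 and Spc24 at 6.06. Grem1, Ccnb1, Cdk1 and Spc24 had no read in ASC_HFS replicate 2, so their values depend on the pseudocount.

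The 8 with the largest negative values were Islr at -5.55, Mfap2 at -5.06, Ifit1 at -4.61, Crabp1 at -4.51, Il1b at -4.26, Pck1 at -4.23, Ace at -4.12 and Spock2 at -4.06. Among the other reversed genes, the values were 4.21 for Rab15, 3.46 for Pla2g7, -3.01 for Dpep1, 2.42 for Gpnmb and 2.17 for Cotl1. Among the other gained genes they were 3.19 for Clec10a, 3.09 for Pirb, 3.03 for Fcgr2b, 2.87 for Clec4a3 and 2.64 for Pf4.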

How the results depend on the processing

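Of 171 named genes, 129 were called for the difference of differences, and of these 1, Tlr2, changed sign in a setting run (2.35 with libraries thinned to the shallowest). Of the 42 not called, 12 changed sign, among them Adgre1 (-0.09 to 2.28), C1qa (-0.62 to 0.42) and Fcmr (-2.17 to 1.30). In the order different between stages (1258), ASC (3022), AD (127), kept (71), reversed (6) and lost (1193), thinning gave 216, 1461, 76, 25, 3 and 190, and a mean minimum of 200 normalized counts, with fewer genes tested, gave 639, 1385, 53, 31, 3 and 607. Averaging the AD_HFS pair gave 46 different, 13 in AD, 8 kept, 0 reversed and 44 lost. Limma-voom gave 1756 in ASC, 282 in AD, 112 kept and 25 reversed, and without ASC_HFS replicate 2 it gave 46 different, 658 in ASC, 206 in AD and 32 lost. Array weights gave 1184 in ASC, 401 in AD, 20 reversed and 778 lost. A separate fit of each table gave 1822, 59, 26 and 2 for ASC, AD, kept and reversed. Log2 of the deposited values gave 219 in AD, 108 kept and 19 reversed, rescaling over all libraries 74 in AD and 43 kept, and a pseudocount of 5 gave 11 reversed. Leaving out 1 library gave 44 to 2276 different, 1801 to 3415 in ASC, 8 to 128 in AD, 4 to 72 kept, 0 to 12 reversed and 42 to 2173 lost; a lone library is assumed to vary like the others. With the replicate block there were 646 different (60.4% positive), 45 in AD, 24 kept, 3 reversed and 616 lost, and same-numbered deviations correlated at -0.131 to 0.211, so the numbers are not shown to pair libraries. A replicate block with the ASC numbers crossed gave 922 different, 3006 in ASC, 93 in AD, 53 kept, 2 reversed and 873 lost. Crossing, voom without a library and averaging were chosen after seeing the data. The cause of these shifts was not tested. Depth limits the ASC_HFS values near or under 10.9 normalized counts.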
